A study of Drosophila melanogaster with 2 samples.

Results

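Membrane trafficking in Drosophila melanogaster runs through a set of genes named Rab, Vps and CHMP, and 64 of the 13945 protein-coding genes on the main chromosome arms carry such a symbol. Their Ensembl symbols begin with Rab and a digit or X, with Vps and a digit, or with CHMP. The set was defined by symbol, but with earlier results of these data known. They comprised 36 Rab genes, 27 Vps genes and 1 CHMP gene, CHMP2B. Binding of Sob, an odd-skipped family protein with zinc fingers, was mapped by chromatin immunoprecipitation and sequencing (ChIP-seq). The material was whole embryos aged 0 to 24 h of the sob-GFP strain, transgenic flies with an insertion that targets sob and yields a Sob-eGFP fusion, which was recovered with an antibody against GFP. There was 1 group, with 2 biological replicates that share the strain, the age and the fusion, so nothing could be compared between conditions. Whole embryos of mixed age pool all tissues, and the peaks do not say in which cells a promoter was bound.

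Rab proteins are small GTPases that switch between an inactive and an active, membrane-bound state, and each marks a particular compartment where it recruits tethers, motors and fusion machinery. Vps genes are named after yeast mutants that missort vacuolar proteins. Their products build the ESCRT complexes, which sort ubiquitinated cargo into multivesicular endosomes, the tethering complexes HOPS and CORVET, the retromer coat and the GARP and EARP tethers. CHMP proteins are the subunits of ESCRT-III, the filament that constricts membranes. In the embryo these routes carry new membrane and adhesion proteins to growing cell surfaces and bring receptors to the lysosome.

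The data were the authors' lists of peaks. The main list, made from both replicates, held 7002 peaks with a median signal of 133.4, and the replicates' own lists held 4490 peaks for replicate 1 and 4626 for replicate 2. A signal is the value the authors' peak caller gave a peak over a control, on no stated scale, and it carries no error of its own. The number of reads behind the lists is unknown. A gene is called marked here when the summit of a main-list peak lay within 1000 bp of any of its transcription start sites (TSSs), and its signal is that of the highest such peak. Distances run from the nearest TSS of the gene and are negative upstream.

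The sequences at the centre of the results are the highest peak among these genes and the bound promoters that hold the motif TATCGATA, the DNA replication-related element (DRE) of many housekeeping promoters in the fly. All are given 5′ to 3′ on the plus strand of dm6, from RefSeq's copy of the release 6 assembly. The first is the stretch between the starts of CHMP2B and its neighbour Tcs5, which point away from each other. Capitals mark GCTACTG, the reverse complement of CAGTAGC, a core motif of the odd-skipped family, and TATAAA, the TATA box motif. The capitals show matches in sequence alone and do not show that TATAAA serves as a TATA box here.
CHMP2B and Tcs5, chr3L:5139396-5139618: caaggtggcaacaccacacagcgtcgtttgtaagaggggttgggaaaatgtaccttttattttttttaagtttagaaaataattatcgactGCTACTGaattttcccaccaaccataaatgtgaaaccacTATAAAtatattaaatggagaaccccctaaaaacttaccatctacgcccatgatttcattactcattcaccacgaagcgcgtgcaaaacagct
The next 5 lie between the starts of a Rab or Vps gene and of the neighbour that points the other way. Capitals mark TATCGATA, and in the Rab8 stretch also CAGCTG, an E-box.
Rab30 and Caper, chr2L:7032607-7032720: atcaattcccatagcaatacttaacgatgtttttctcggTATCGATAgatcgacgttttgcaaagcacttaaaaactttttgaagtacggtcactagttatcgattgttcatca
Rab7 and Epp, chr3R:23992917-23993007: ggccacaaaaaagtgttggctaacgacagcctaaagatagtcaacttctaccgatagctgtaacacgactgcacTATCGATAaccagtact
Rab8 and Usp32, chr3L:19871079-19871138: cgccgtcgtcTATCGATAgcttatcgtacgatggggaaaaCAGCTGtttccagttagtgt
Rab27 and mei-38, chrX:1476975-1477062: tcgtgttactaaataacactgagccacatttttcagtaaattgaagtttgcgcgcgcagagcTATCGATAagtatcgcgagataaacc
Vps16A and TrpRS, chr3R:9266905-9267018: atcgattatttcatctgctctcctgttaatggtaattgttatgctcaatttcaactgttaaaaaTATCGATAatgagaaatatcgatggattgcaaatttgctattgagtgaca
The last 2 are the 81 bp around the highest Vps summit and the highest Rab summit. They are shown because neither window holds any of the 9 motifs searched, and so they have no capitals. The longer stretch between the starts of Rab3GAP1 and its neighbour CG14352 does hold CAGCTG and TATAAA, outside this window.
Vps33B, chr3R:25473209-25473289: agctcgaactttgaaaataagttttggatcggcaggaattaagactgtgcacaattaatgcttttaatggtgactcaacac
Rab3GAP1, chr2L:1611284-1611364: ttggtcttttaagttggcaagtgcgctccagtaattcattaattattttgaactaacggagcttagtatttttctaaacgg

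CHMP2B (FBgn0035589), an ESCRT-III subunit, had by far the highest promoter peak of the 64 genes. Its signal was 2612.3, at place 5 of the 7002 main-list peaks and above 99.8% of all marked genes. The peak covered chr3L:5139325-5139669, with the summit 126 bp upstream of the single CHMP2B start. In the replicates' own ranked lists the overlapping peak had a signal of 1589.3 at place 6 in replicate 1 and of 1041.4 at place 7 in replicate 2. Both replicates thus placed it among their highest peaks. The same summit lay 98 bp upstream of Tcs5, a gene of tRNA modification, which is nearer than CHMP2B. A peak between these starts cannot be given to either gene, and CHMP2B was no longer marked when each summit was given to the nearest start alone. In the sequence above, the copy of CAGTAGC on the minus strand, at chr3L:5139487-5139493, was centred 3 bp from the summit.

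Of the 36 Rab genes 18 were marked, against 32.9% of all protein-coding genes. Without the 5 X-linked genes named after Rab9 and the 3 genes named as regulators of Rab3, the marked Rab genes were 16 of 28. Of the 27 Vps genes 15 were marked. Marked Rab genes had a median signal of 163.4, from 68.2 for Rab35 to 380.7 for Rab3GAP1, and marked Vps genes one of 158.2, from 4.7 for Vps13 to 549.1 for Vps33B. The median over all marked genes was 168.3. Signals above that median were found at 8 of the 18 Rab and 7 of the 15 Vps genes, against 50% of all marked genes by construction. Both groups thus had larger marked shares than all genes, at signals close to those of other marked genes. In the authors' smaller, conservative list 14 Rab and 10 Vps genes were marked, against 26.2% of all genes. With each summit given to the nearest start alone, 25.9% of Vps and 33.3% of Rab genes were marked, against 24.5% of all genes. Whether shared peaks account for the larger Vps share was not tested. No test was run on these counts.

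**Figure D1:**
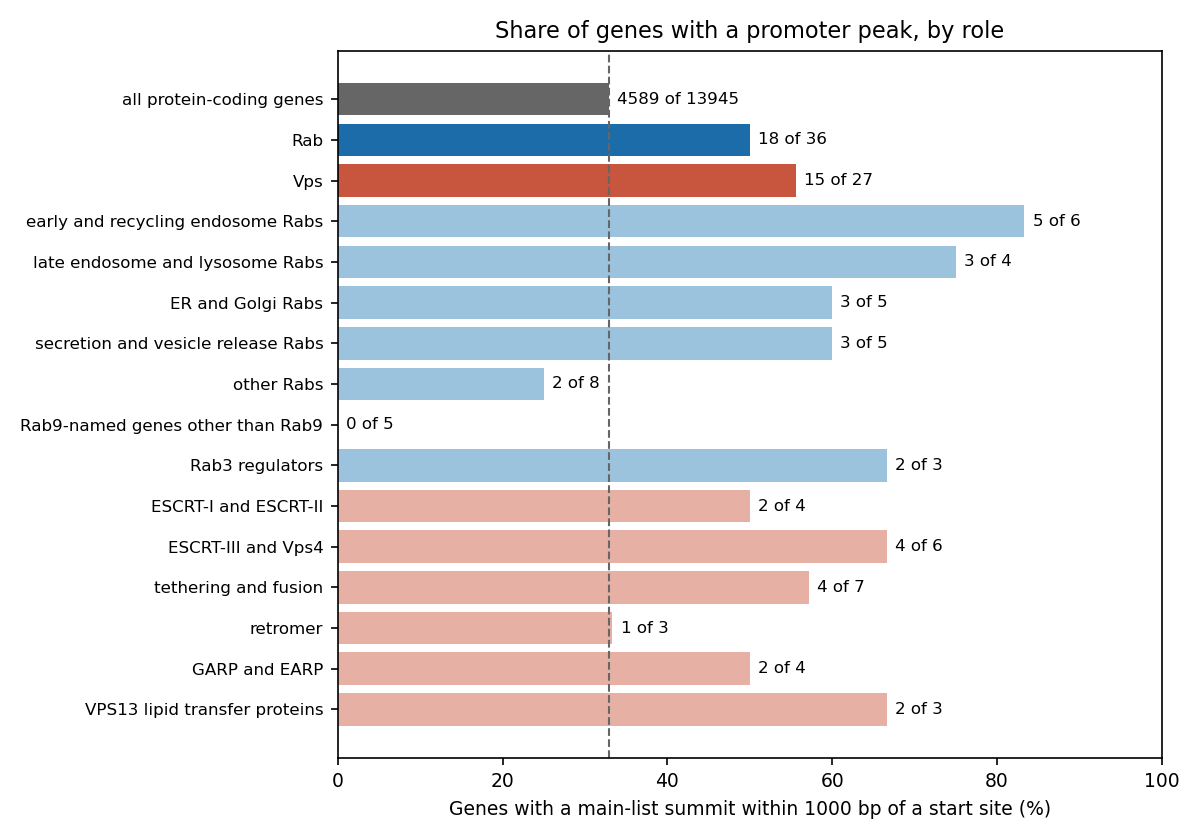
Bars give the percentage of genes with a main-list summit within 1000 bp of a start, with counts beside them, for all protein-coding genes (grey, dashed line), Rab and Vps genes (dark) and their roles (light blue for Rab, light red for Vps; ESCRT-III and Vps4 includes CHMP2B). Rab stood at 18 of 36 and Vps at 15 of 27, and the roles shown ran from 0 of 5 for the genes named after Rab9 to 5 of 6 for early and recycling endosome Rabs; Vps15, the only gene of its role, is not drawn apart.

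Among Rab genes of the early and recycling endosome, 5 of 6 were marked. This and every role count below stand against the 32.9% of all protein-coding genes that were marked. The roles hold few genes each and were assigned after the files were read. Rab5 (FBgn0014010), which drives fusion of early endosomes, had the most complex pattern, with 4 promoter peaks over 6 starts. Its highest peak, chr2L:2363756-2363852, had a signal of 295.9 and lay 276 bp upstream of an internal start, with no other gene's start within 1000 bp. The replicates gave that peak 161.9 and 155.8, which are nearly equal. Of the other 3 Rab5 peaks, the one with 103.8 and the one with 35.8 lay near the start of Axud1, on the opposite strand, and the one with 25.1 overlapped the highest peak.

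Rab14 (FBgn0015791), which acts between the Golgi and endosomes, had a signal of 236.4 at chr2L:14355660-14355791, with 112.2 in replicate 1 and 139.8 in replicate 2. Its summit lay 596 bp downstream of the nearest Rab14 start. Rab21, of the early endosome, had 120.1. Rab11, the Rab of the recycling endosome, had 113.0 at its promoter, and Rab35, of endocytic recycling, had 68.2, the lowest of any marked Rab gene. Rab4, of rapid recycling, was not marked. Rab11 also carried an intronic peak of 351.1 at chr3R:21113113-21113304, 1805 bp downstream of its start and outside the 1000 bp limit. That peak had 192.3 and 165 in the replicates and was in both own lists, whereas the promoter peak of Rab11 was in the list of replicate 1 alone, with 75.9 against 33.7. The stronger binding at Rab11 was thus in the gene and not at its start.

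For the late endosome and lysosome, 3 of 4 Rab genes were marked. Rab39 (FBgn0029959) had a signal of 303.1 at chrX:7734521-7734640, with 196.6 and 112.2 in replicates 1 and 2. Its summit was 304 bp upstream of Rab39 but 32 bp inside its neighbour Pdp, so it was nearer to Pdp. Rab7 (FBgn0015795), which controls the fusion of late endosomes with lysosomes, had 263.8 at chr3R:23992916-23993047, with 137.2 and 112.3. The Rab7 summit lay 31 bp upstream of the gene, between it and Epp. Rab32, which in the fly eye serves pigment granules, had 124.6, and Rab9 was not marked. Rab32 held 2 further intronic peaks, of 105.2 and 102.6, neither of which overlapped a peak of a replicate's own list.

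Of 5 Rab genes of the endoplasmic reticulum and Golgi, 3 were marked. Rab30 (FBgn0031882), a Golgi Rab, had a signal of 308.4 at chr2L:7032608-7032767, with 151.1 and 157.7 in replicates 1 and 2. Its summit was 70 bp upstream of Rab30 and 45 bp upstream of Caper, which encodes a splicing factor. Rab1 (FBgn0285937), the Rab of transport from the endoplasmic reticulum to the Golgi, had 206.8 at chr3R:21268924-21269303, with 124.2 and 81.0, and 54 bp upstream of the start. No start on the opposite strand lay within 1000 bp of the Rab1 summit. Rab18, of lipid droplets and the endoplasmic reticulum, had 128.4, 789 bp upstream and nearer to RpL35, a ribosomal protein gene. A second Rab18 peak, of 86.6, lay 11 bp upstream of the Rab18 start and was in the own list of replicate 1. Rab2 and Rab6, both of the Golgi, were not marked, although Rab6 had a summit in the own list of replicate 2.

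Among Rab genes of secretion and vesicle release, 3 of 5 were marked. Rab8 (FBgn0262518), which acts in transport from the Golgi to the plasma membrane, had 327.0 at chr3L:19870872-19871251, with 156.1 in replicate 1 and 168.2 in replicate 2. Its summit was 16 bp downstream of the Rab8 start, 77 bp upstream of Usp32, and 31 bp from the centre of the TATCGATA in the sequence above. Rab27, of secretory vesicles, had 159.3, and Rab26, of secretory and synaptic vesicles, had 128.6. The Rab26 summit was 717 bp upstream of Rab26 and 37 bp upstream of Pc, the Polycomb gene. Rab3, the synaptic vesicle Rab, and Rab10, of polarised secretion, were not marked.

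Genes for regulators of Rab3 were marked in 2 of 3 cases. Rab3GAP1 (FBgn0051935), named for a subunit of the complex that stimulates GTP hydrolysis by Rab3, held the highest Rab signal, 380.7 at chr2L:1611231-1611420, with 219.9 in replicate 1 and 153.4 in replicate 2. Its summit was 167 bp upstream of Rab3GAP1 and 86 bp upstream of CG14352. Rab3-GAP had 102.4, while Rab3-GEF, the exchange factor, was not marked. The remaining Rab genes were marked in 2 of 8 cases, RabX1 with 167.5 and Rab23, a planar polarity gene in the fly, with 138.9. The RabX1 summit was 204 bp upstream of RabX1 and 39 bp upstream of mi. Rab19, Rab40, RabX2, RabX4, RabX5 and RabX6 were unmarked, as were Rab9D, Rab9Db, Rab9E, Rab9Fa and Rab9Fb.

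**Figure D2:**
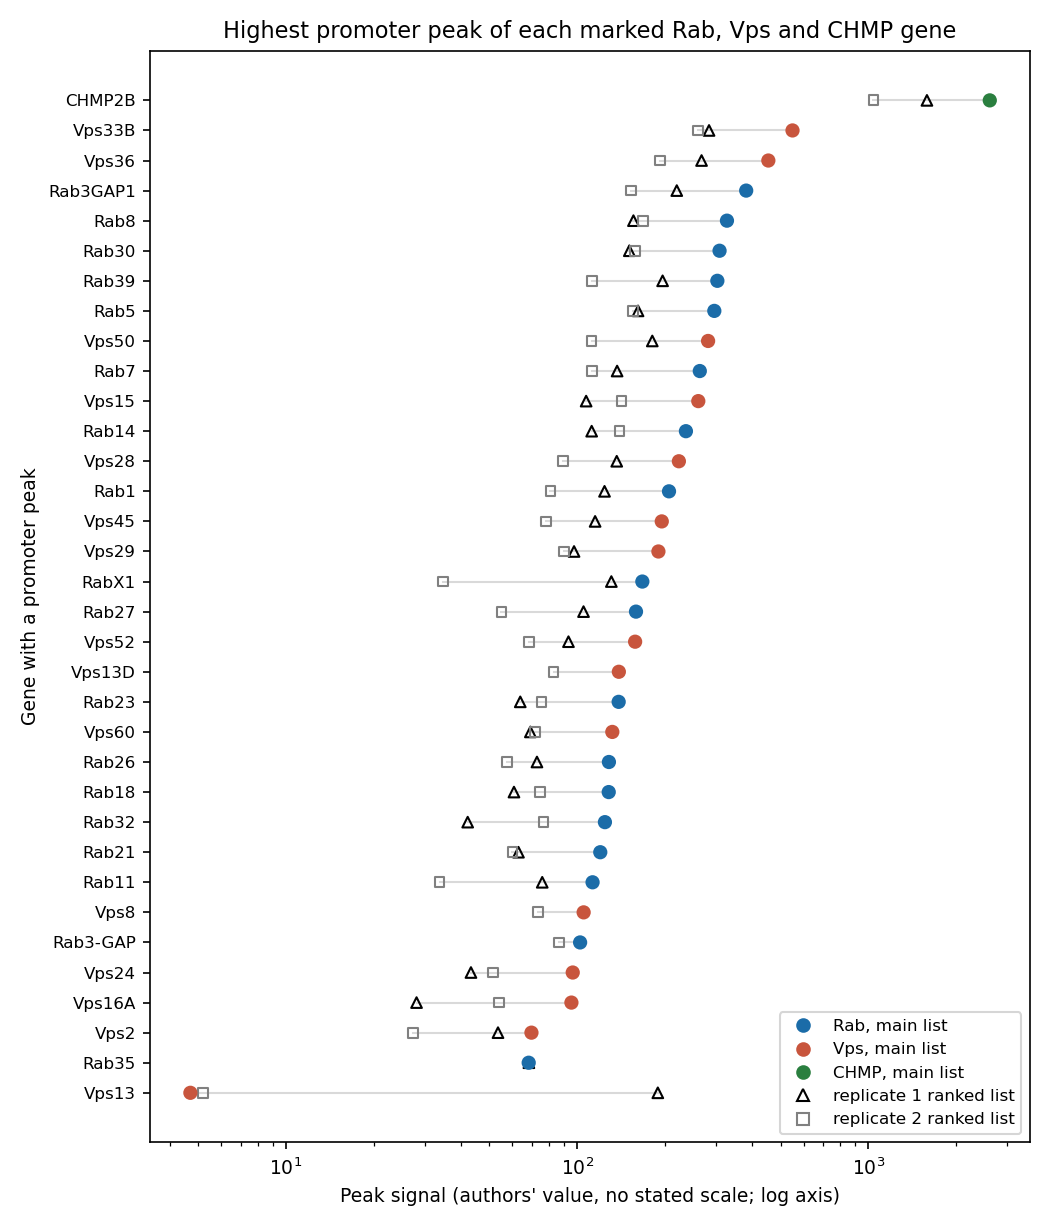
The 34 marked genes are ordered by the signal of their highest promoter peak (log axis, no stated scale): filled circles are the main list, triangles and squares the overlapping peak in the ranked lists of replicates 1 and 2. CHMP2B, at 2612.3, stands apart from Vps33B at 549.1, and Vps13, at 4.7, is the only gene whose replicate 1 value, 189.3, lies far above its main-list value; for Rab35 the triangle is hidden by the circle.

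The ESCRT genes among the Vps symbols were marked in part. In ESCRT-I and ESCRT-II, 2 of 4 were marked, against 32.9% of all protein-coding genes. Vps36 (FBgn0086785), the ubiquitin-binding subunit of ESCRT-II, had a signal of 453.6 at chr3L:13513109-13513350, with 267.5 and 192.9 in replicates 1 and 2. Its summit was 128 bp upstream of Vps36 and 14 bp upstream of Liprin-beta. Vps28 (FBgn0021814), of ESCRT-I, had 223.6 at chr2R:8080020-8080145, 39 bp upstream, with 136.8 and 89.2. It was the only marked Vps gene whose peak no opposite-strand start shared. Vps25 and Vps37B were unmarked.

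Of the 6 genes of ESCRT-III and its ATPase Vps4, CHMP2B among them, 4 were marked. Beside CHMP2B, Vps60 had 132.1, Vps24 had 96.6 and Vps2 had 69.7, so the 3 other subunits lay below the median of marked genes. Vps20 and Vps4 were unmarked. The summit at Vps24 was 566 bp upstream of Vps24 and 42 bp upstream of Suv3, and that at Vps2 was 393 bp upstream of Vps2 and 171 bp upstream of Exo84, a gene of the exocyst. None of these genes had a peak near the height of that at CHMP2B.

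Genes for tethering and fusion factors were marked in 4 of 7 cases. Vps33B (FBgn0039335), a Sec1/Munc18-type fusion protein, had the highest Vps signal, 549.1 at chr3R:25473091-25473518, with 283.8 in replicate 1 and 260.7 in replicate 2. Its summit was 241 bp upstream of Vps33B and 191 bp upstream of Fur1, which encodes a furin protease. Its partner gene Vps16B was unmarked. Vps45 (FBgn0261049), the fusion protein of early endosomes, had 195.3 at chr3R:9563531-9563910, 203 bp upstream, with 115.3 and 78.1. The summit was 48 bp upstream of CG9393, and Vps45 was not marked in the own list of replicate 2. The CORVET subunit gene Vps8 had 105.3 and Vps16A, of the HOPS and CORVET core, had 95.6, whereas the HOPS genes Vps11 and Vps39 were unmarked. The Vps8 summit was 390 bp upstream of Vps8 and 7 bp downstream of the start of sfl.

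Of the retromer genes Vps26, Vps29 and Vps35, which return cargo from endosomes, only Vps29 (FBgn0031310) was marked, with 190.2 at chr2L:1150580-1150959, 4 bp downstream of its start. The replicates gave it 97.6 and 90.2, and the summit was 93 bp upstream of Tfb4, a gene of the general transcription factor TFIIH. In GARP and EARP, the tethers of endosome-derived vesicles, 2 of 4 were marked. Vps50 (FBgn0034271), specific to EARP, had 281.7 at chr2R:17739531-17739910, with 181.2 and 112.1. Its summit was 180 bp upstream of Vps50 and 36 bp upstream of PIG-A, a gene of GPI anchor synthesis. Vps52 (FBgn0031710) had 158.2 at chr2L:5523940-5524319, 232 bp upstream, with 93.4 and 68.4, and its summit was 9 bp upstream of Elp4, a gene of the Elongator complex. Vps51 and Vps53 were unmarked.

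Vps15 (FBgn0260935), the regulatory subunit of the class III phosphatidylinositol 3-kinase, had 260.7 at chr3R:9245819-9246198, 140 bp upstream, with 107.4 in replicate 1 and 142.1 in replicate 2. At Vps15 replicate 2 therefore had the higher value. Among the VPS13 genes, which encode bridge-like lipid transfer proteins, Vps13D had 139.1, Vps13B was unmarked and Vps13 had 4.7. The Vps13 summit was 958 bp upstream of its start. It lay 207 bp from the summit of an overlapping main-list peak of 315.7, which itself was 1165 bp from the start and so outside the limit. The replicate 1 value of 189.3 at Vps13 came from the peak it overlaps there, and Vps13 was marked in neither replicate's own list. Of the 42 promoter peaks of the 34 marked genes, 5 overlapped a stronger main-list peak in this way, at Rab5 (2 peaks), Rab35, Vps45 and Vps13. The same count was not made over all promoter peaks, so 5 of 42 cannot be called high or low.

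Summits lay upstream of the start at 31 of the 34 marked genes, against 79.9% of all marked genes. Within 300 bp upstream they were 23 of 34, against 60.1%. The exceptions were Rab8 and Vps29, 16 and 4 bp downstream, and Rab14, 596 bp downstream. The farthest marked summits were Rab26 at 717 bp, Rab18 at 789 bp for its highest peak and Vps13 at 958 bp. Just outside the limit were RabX5, whose nearest summit was 1362 bp away with a signal of 942.4, Rab9D at 1407 bp with 180.3 and RabX4 at 1724 bp with 153.9. Genes with 1 annotated start were marked in 26 of 53 cases, against 26% of all such genes, and those with several starts in 8 of 11, against 52%.

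**Figure D3:**
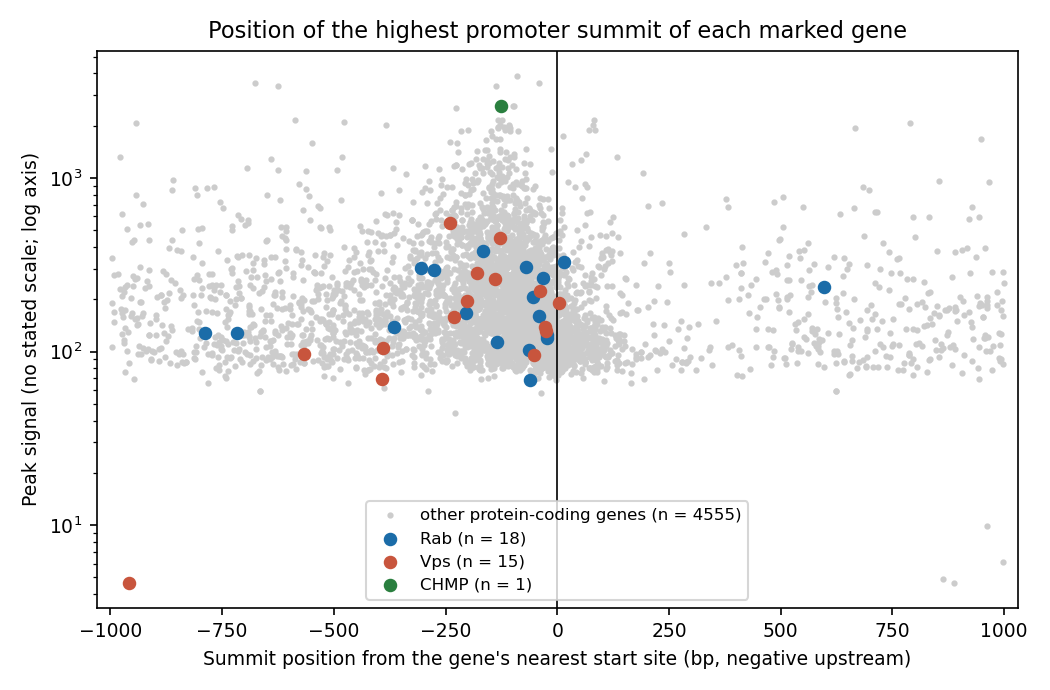
Each point is the highest promoter peak of 1 marked gene: the horizontal axis is the summit's distance from the nearest start of that gene (bp, negative upstream), the vertical axis its signal (log scale, no stated unit). Rab (blue), Vps (red) and CHMP2B (green) lie mostly within 300 bp upstream, in 23 of 34 cases, among the other marked genes in grey; Vps13 is the red point at the lower left.

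Many of these promoters were shared. A TSS of another protein-coding gene on the opposite strand lay within 1000 bp upstream of 38 of the 64 genes, against 36.2% of all protein-coding genes. Of the divergent genes so defined, 28 of 38 were marked, against 52.9%, and of the others 6 of 26, against 21.6%. By group, marked divergent genes were 13 of 19 for Rab and 14 of 18 for Vps. Those without such a neighbour were 5 of 17 and 1 of 9. Among the other trafficking genes described last, the counts were 43 of 61 and 21 of 50. The members were marked more often where they shared a promoter, as genes in general were, and the members held more such promoters. Whether this accounts for their larger marked share was not tested.

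**Figure D4:**
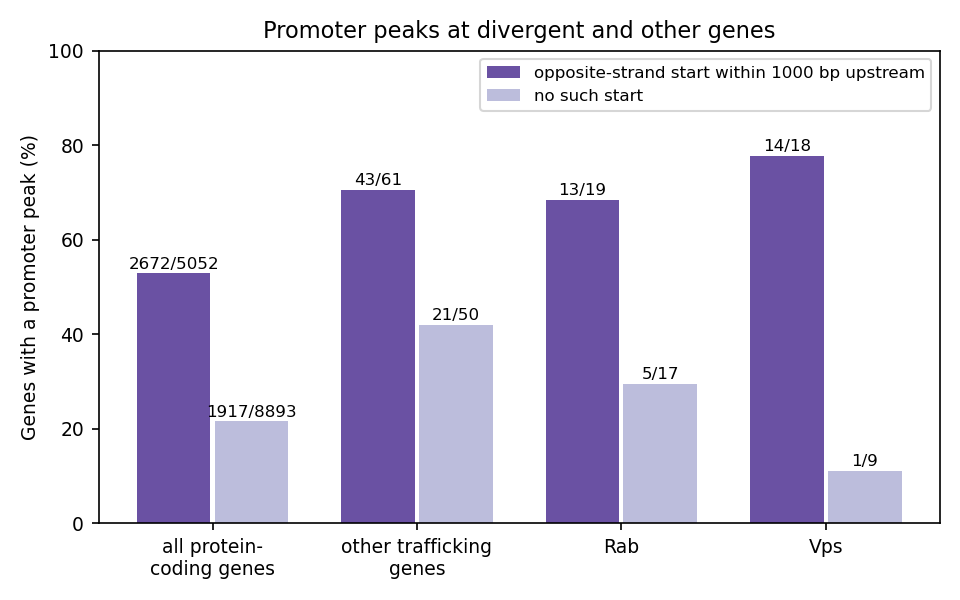
Bars give the percentage of genes with a promoter peak, with counts above them, for genes with an opposite-strand start within 1000 bp upstream (dark) and without (light). The dark bar is the higher in every set, with 13 of 19 against 5 of 17 for Rab, 14 of 18 against 1 of 9 for Vps, and 52.9% against 21.6% of all protein-coding genes.

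The highest peak was also within 1000 bp of an opposite-strand start of another gene at 12 of 18 marked Rab and 14 of 15 marked Vps genes, against 55.2% of all marked genes. Counted by peak, 32 of the 42 promoter peaks of Rab, Vps and CHMP genes lay within 1000 bp of starts on both strands, against 34.8% of all main-list promoter peaks. At 12 of the 17 marked members off arm 2R with a divergent start within 300 bp, the highest summit lay between the starts, against 58.3% of such marked genes. At such peaks the binding cannot be given to 1 gene. When each summit was given to the nearest start alone, 12 Rab, 7 Vps and 0 CHMP genes were marked, and the Vps share was close to the 24.5% of all genes. The neighbours were of many kinds, such as Tcs5, Caper, RpL35, Pc and Elp4, and those in trafficking were not counted against genes in general. Among them, Rab23 shared its peak with plx, a Rab GTPase-activating gene, and Vps2 with Exo84. On the same strand the Rab1 summit lay 961 bp downstream of a start of AP-2sigma, a clathrin adaptor gene.

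The replicates were compared through their own lists. Rab genes were marked in 16 cases in the own list of replicate 1, against 24.3% of all genes, and in 12 in that of replicate 2, against 24.4%. Vps genes were marked in 10 cases in each. In both own lists there were 9 Rab genes, 8 Vps genes and CHMP2B, against 19% of all genes. Of the 18 marked Rab genes, 9 were thus in both own lists, 7 in that of replicate 1 alone and 2 in that of replicate 2 alone. Of the 15 marked Vps genes, 8 were in both, 2 and 2 in 1 alone, and 3, Vps13, Vps16A and Vps24, in neither. Over all marked genes the shares were 57.4% in both, 14.3% and 14.2% in 1 alone, and 14.1% in neither.

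By peak, 32 of the 42 overlapped a peak of replicate 1's own list, against 62.8% of all promoter peaks, and 27 one of replicate 2's, against 67%. Both were overlapped by 20, against 48.1%, and neither by 3, against 18.3%. Where both ranked lists held the highest peak, at 30 of the 34 marked genes, replicate 1 had the higher signal at 20, against 53.1% of such peaks of all marked genes. Spearman's correlation between the replicates over these 30 peaks was 0.68, and 0.715 over 3066 such peaks of all marked genes. These peaks share both libraries and are not independent. At RabX1 the signal was 131.1 in replicate 1 and 34.6 in replicate 2, and at Rab35 replicate 2 listed no overlapping peak. No overlapping peak of replicate 1 was listed at Vps13D, Vps8 and Rab3-GAP, where replicate 2 had 83.0, 73.4 and 86.4. The main-list signals of these 4 genes ran from 68.2 to 139.1, so none was among the strong peaks.

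**Figure D5:**
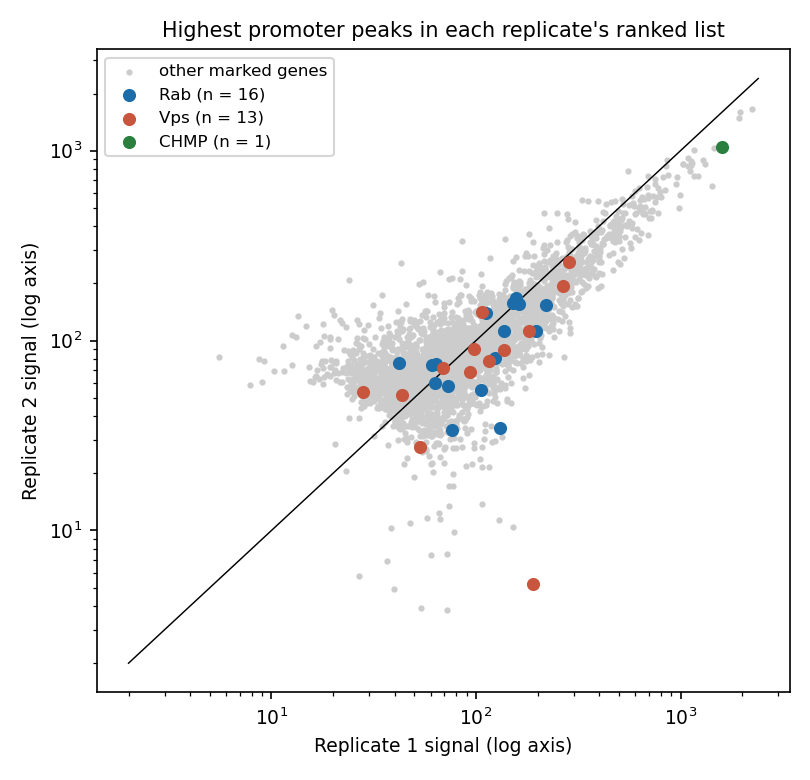
Each point is the highest promoter peak of a marked gene, placed by the signal of the overlapping peak in the ranked list of replicate 1 (horizontal) and replicate 2 (vertical), both on log axes with no stated unit; the line marks equal values. CHMP2B (green) is among the highest in both at 1589.3 and 1041.4, Rab (blue) and Vps (red) points follow the grey cloud of other genes, and Vps13 is the red point far below the line.

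The 9 motifs were searched on both strands within 50 bp of the summit. They were the DRE as TATCGATA, the core promoter element known as motif 1 as GGTCACACT, an E-box as CAGCTG and another E-box as CACGTG. The M-box was searched as TCACGTGA, which contains the second E-box. The odd-skipped family motif was searched as CAGTAGC and, with 1 more base, as ACAGTAGC. The GAGA element was searched as GAGAGAG, and the TATA box as TATAAA. TATCGATA lay near 5 of the 42 summits, or 11.9%, at Rab7, Rab8, Rab27, Rab30 and Vps16A. It was found at 4.09% of all 4181 promoter summits and in 0.419% of windows of the same width centred 500 bp to either side of those summits. All 5 copies lay between divergent starts. Of the 17 marked Rab, Vps and CHMP genes off arm 2R with a divergent start within 300 bp, 5 held a copy between the starts, against 16.6% of the 1138 marked genes of that kind; unmarked genes were not searched. Among summits with starts on both strands, TATCGATA was near 5 of 32 for these genes and near 6.45% of all 1457. With a window of 25 bp it was near 2 of 42, against 2.22% of all promoter summits. The copies were centred 7 bp from the summit at Vps16A, the nearest, and 31 bp at Rab8, the farthest.

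CAGTAGC was near 1 summit, that of CHMP2B, and near 0.718% of all promoter summits, with the same share of 0.718% in the flanking windows. TATAAA was near 6 summits, or 14.3%, against 14.4% of all promoter summits, at CHMP2B, Vps36, Vps15, Rab32, Rab11 and Rab35. At Rab35 this was the lower peak, of 34.5. CAGCTG was near 4, or 9.52%, against 6.15%, at Rab23, Vps24 and lower peaks of Rab5 and Rab32. Those lower peaks were the one of 35.8 at Rab5 and one of 97.1 at Rab32, 957 bp downstream. GAGAGAG was near 1, the same Rab5 peak of 35.8, or 2.38%, against 3.04%. GGTCACACT, CACGTG, TCACGTGA and ACAGTAGC were near none of the 42, where their shares of all promoter summits were 1.72%, 1.27%, 0.0239% and 0.0957%. The shorter ATCGAT, which TATCGATA contains and which was chosen after the sequences were seen, was near 13 summits, or 31.0%, against 10.7% of all promoter summits. Among summits with starts on both strands, ATCGAT was near 11 of 32 for these genes and near 14.9% of all 1457. The 101 bp around the member summits held 38.1% ± 9.88 G and C (SD, n = 42 peaks), and those around all promoter summits 40.3% ± 11.3 (SD, n = 4181).

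A summit of the ranked list, which holds 117372 peaks down to the weakest, lay within 1000 bp of a start at 26 of the 30 unmarked genes. The share over all unmarked protein-coding genes was 77.9%, so having such a summit does not set the members apart. Some of these summits were weak: the only one at Rab9Fb had a signal of 13.2, where the median of the ranked list was 27.3. The main list keeps peaks with an irreproducible discovery rate (IDR) of 0.01 or less, a −log10 of 2. Nearest to it were Rab40 with a −log10 IDR of 1.90 and a signal of 102.2, Rab2 with 1.82 and Rab6 and Rab10 with 1.63 each. Rab9E, Rab9Fa, RabX2 and Vps11 had no ranked summit within the limit. By arm, 7 of 10 genes were marked on 2L, against 31.4% of all genes there, 7 of 11 on 3L, against 34.4%, and 10 of 15 on 3R, against 33.2%. On 2R they were 5 of 12, against 33.5%. On X they were 5 of 16, which is near the 32.4% of all genes there. The X count includes the 5 genes named after Rab9, which lie there.

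Other trafficking genes, 111 in 7 lists taken by role, were marked in 64 cases, or 57.7%, against 32.9% of all protein-coding genes. Their median signal was 170.9. At 42 of the 64 the highest peak was also within 1000 bp of an opposite-strand start, against 55.2% of all marked genes. Such a peak, and its signal below, cannot be given to the trafficking gene alone. The list of HOPS, CORVET and fusion genes without a Vps symbol was marked in 10 of 13 cases, led by Bulli with 1061.8 and Mon1 with 871.3, both of the complex that activates Rab7, then Rbsn-5 with 455.2 and Snap29 with 357.4. Of the HOPS subunit genes in it, car had 174.6, while dor and lt were unmarked. Ccz1 was unmarked too. Regulators and effectors of Rabs were marked in 16 of 22, led by spri with 257.8, Rich with 230.1 and strat with 220.9. Of the other ESCRT genes 1 of 11 was marked, mop at 128.9, against 32.9% of all genes. Those unmarked included Chmp1, whose symbol is spelt in lower case and so falls outside the rule.

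Each count that follows stands against the 32.9% of all protein-coding genes that were marked. Retromer, sorting nexin and GARP genes were marked in 7 of 13, led by scat with 466.8, Snx21 with 378, FAM21 with 324.9 and Snx27 with 311.5. Phosphoinositide and autophagy kinase genes were marked in 5 of 9, led by Atg14 with 172.1, Uvrag with 162.9, EDTP with 104.5 and Atg6 with 104.4. Arf, Sar and coat genes were marked in 15 of 25, led by Arl1 with 1678.1, alphaCOP with 639.2, Arl5 with 391.2 and deltaCOP with 366. Exocyst and TRAPP genes were marked in 10 of 18, led by SIDL with 463.4, Sec6 with 387.1, brun with 293.6 and gry with 262.6. Every list thus held marked genes, and the lowest count was that of the ESCRT genes outside the symbol rule; those within it were marked in 2 of 4 and 4 of 6 cases, as given above.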

How the data were processed

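The measurements were peak lists on the dm6 build from 2 samples that the labels call biological replicates of 1 group; p-values were not computed. Per the labels, chromatin was sonicated to fragments of 200 to 800 bp, and the antibody field names sob where the description names GFP. The deposited lists were ordered by the irreproducible discovery rate; which aligner and peak caller were used is not given in the sources used here. The signal of a peak is the authors' value, with no stated scale, and was used within a list to describe and rank peaks. The deposited score is the discovery rate on a scale that ends at 1000, with a lowest value of 830 in the thresholded lists. The deposited −log10 of the global rate was read in the ranked lists, and all 7002 main-list peaks were found there past a rate of 0.01. The files hold no read counts, so depth per sample is unknown and intervals that rest on depth were not calculated. Not used as measurements were 1 ranked list and the deposit's own text inventories.

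Gene models came from Ensembl release 115 (annotation 6.54), and bases were read from the RefSeq version of assembly release 6. Main-list summits within 1000 bp of a TSS marked a gene. The replicate value of a peak is the signal of the overlapping peak with the nearest summit in that replicate's ranked list, where 1 bp of overlap was enough. Python 3.11.15, numpy 2.4.6, pandas 2.3.3, scipy 1.17.1 and matplotlib 3.10.9 were used, and the assignment of summits to genes was tested on simulated data. Counts and medians stand beside those of all genes in place of a test. Every member was named; the 8 Rab and 8 Vps genes of highest signal and CHMP2B got full values, and the 4 highest were named in each companion list, save 1 gene that is not reported here. In those lists 3 symbols were not matched and 7 genes were found through an older symbol. The members, lists and motifs were chosen with earlier results of these data known, and the roles were assigned after the files were read. Alternatives were the conservative list of 4929 peaks, each replicate's own list, the 50% of peaks with the higher signals, promoter limits of 500 or 2000 bp, canonical starts, the nearest gene alone, other overlaps, and motif windows of 25 or 100 bp.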

Additional observations from a re-analysis of the deposited data

How the results depend on the processing

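The counts of marked Rab and Vps genes depended on the peak threshold and on how shared peaks were assigned, and the share of all genes moved with them. With the stronger 50% of peaks, 11 Rab and 9 Vps genes were marked, against 21.2% of all genes, with median signals of 263.8 and 223.6. With the conservative list, 14 Rab and 10 Vps genes were marked, against 26.2%, with medians of 221.6 and 209.4. With each summit given to the nearest start alone, 7 Vps and 0 CHMP genes were marked, and the Vps share of 25.9% was no longer clearly above the 24.5% of all genes. Leaving out a replicate gave 12 to 16 Rab genes, 10 to 10 Vps genes and 1 CHMP gene. Promoters of 500 bp gave 16 Rab and 13 Vps genes, against 29.0% of all genes, and promoters of 2000 bp gave 21 and 15, against 39.2%. Summits with any of the 9 motifs numbered 7 in a window of 25 bp, or 16.7% against 14.4% of all promoter summits, and 24 in one of 100 bp, or 57.1% against 50%, where the main window gave 15, or 35.7% against 28.9%. TATCGATA was near 2 summits in the window of 25 bp, against 5. No paired analysis was possible because there is 1 group and no test.

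Peak signals have no error, and 2 replicates of unknown depth do not separate an unbound promoter from a weakly bound one, so unmarked genes are not shown to be unbound. Genes with a start on the opposite strand cannot be told apart as targets.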
